A study of Pteromalus puparum with 9 samples.

Results

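In RNA-seq of the parasitoid wasp Pteromalus puparum, 88 of 21808 ID stems lay moderately above the carcass in both parts of the salivary gland, its duct and its reservoir. A stem is the ID of a transcript model without its final isoform number, so that it joins the models listed under 1 ID. The members were chosen by their measured levels: counts were summed per stem and scaled to counts per 1e+06 (CPM) with TMM factors, which correct for differences in RNA composition. A member had means of at least 50 CPM in duct and in reservoir, each mean was 3 to 8 times that of the carcass, and the duct and reservoir means lay within 2-fold of each other. In all, 1183 stems reached 50 CPM in both gland parts, of which 205 were more than 8 times the carcass in both and 776 were less than 3 times the carcass in both.

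The study compared 3 tissues of wild-type wasps with 3 libraries each: salivary gland duct, salivary gland reservoir and carcass, 9 libraries of 1 batch. The labels give neither the sex, age or stage of the wasps, nor how many animals a library pooled, nor what the carcass still held after dissection. They call the libraries biological replicates without saying whether each came from separate animals, so p-values reflect only how these libraries spread, which may be technical. Insect salivary glands are secretory organs: gland cells make proteins that pass through the secretory pathway, a reservoir holds the secretion, and a duct carries it to the mouthparts. Parasitoid wasps are studied for secretions that act on their hosts. The IDs are not paired with gene names in the files, so members are named by their IDs and no role can be given. The prefixes PB and MSTRG, and the x at the end of some IDs, are not defined by the labels or the files.

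The libraries held 18690598 to 22640711 assigned counts. The TMM factors were 0.9489 to 1.0358 for the duct, 0.7458 to 0.8195 for the reservoir and 1.0827 to 1.6329 for the carcass, so the factors did not overlap between tissues. With library size alone the median log2 ratio of all tested stems moved by -0.446 between duct and carcass and by -0.787 between reservoir and carcass. The members' median ratios were then 3.49 for duct and 2.75 for reservoir, and 69 of the 88 fell under 3 times the carcass in a gland part. The deposited TPM correct for transcript length and also carry no TMM factor. With them the median ratios were 2.37 for duct and 1.88 for reservoir. Under 3 times the carcass in a gland part were 82 of the 88. All 88 stayed above the carcass in both gland parts on either scale. The labelled tissues were not checked against markers, since the IDs carry no gene names. In these dissected tissues, fewer cells of a type and less RNA per cell cannot be told apart.

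By the rule, all members were among the 1183 of 21808 stems at 50 CPM or more in both gland parts. Their mean levels ran from 51.0 to 4456 CPM in the duct with a median of 121, from 51.6 to 5391 CPM in the reservoir with a median of 120 and from 8.55 to 890.5 CPM in the carcass with a median of 25.2. In both gland parts, 45 members reached 100 CPM, 19 reached 200, 7 reached 500 and 2 reached 1000. Together the members took 1.96, 2.06 and 2.25% of the counts of the duct libraries, 1.73, 1.55 and 2.13% for the reservoir libraries and 0.741, 0.670 and 0.489% for the carcass libraries. The 6 gland libraries thus all lay above the 3 carcass libraries, which follows from the rule on the means. The means were 2.09% ± 0.149 for the duct, 1.80% ± 0.296 for the reservoir and 0.633% ± 0.13 for the carcass (SD, n = 3).

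**Figure D1:**
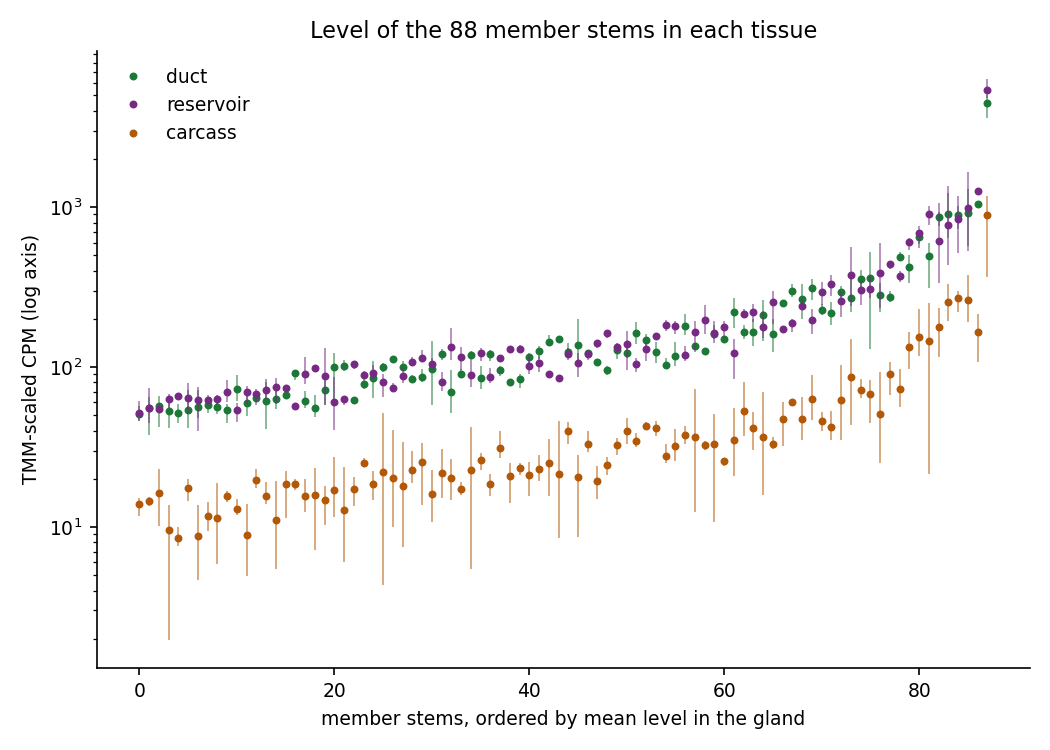
Level of each of the 88 stems (TMM-scaled CPM, log axis), ordered by mean level in the gland from left to right; points are tissue means and vertical lines run from the lowest to the highest of 3 libraries. Every stem has its duct and reservoir lines above its carcass line, PB.144x stands alone at the right, and many carcass lines are the longer ones.

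PB.144x led the set, with 20.8% of the members' duct counts, 23.2% of their reservoir counts and 18.1% of their carcass counts. It read 3582, 5041 and 4745 CPM for the duct libraries, 5016, 4820.3 and 6337 CPM for the reservoir libraries and 1170.3, 363 and 1138 CPM for the carcass libraries. Every gland library lay above every carcass library, and the second carcass library lay far below the other two. Per length, PB.144x stood at 1798 ± 313 TPM for the duct (SD, n = 3), 1617 TPM for the reservoir (n = 2) and 904 ± 379 TPM for the carcass (SD, n = 3). On that scale, which also carries no TMM factor, the distance to the carcass was smaller than in CPM. PB.144x joins 73 transcript models, the most of any member, and the estimation divides reads among them.

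PB.6893, listed as a single model, was the other member over 1000 CPM. It read 1026, 1041 and 1048 CPM for the duct, 1291, 1233 and 1247 CPM for the reservoir and 213, 107 and 173 CPM for the carcass. In TMM-scaled CPM the reservoir libraries lay above the duct libraries without overlap. Scaled by library size alone, the libraries of the 2 gland parts overlapped. With TMM the duct libraries agreed more closely than those of any other member in any tissue, with a coefficient of variation of 1.10%. Per length it stood at 1293 TPM for the duct, 1248 TPM for the reservoir (n = 2) and 392 TPM for the carcass. In TPM the duct mean was thus the higher of the 2 gland parts.

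The other 5 stems over 500 CPM in both gland parts were PB.6916, PB.8445, MSTRG.10299, MSTRG.8816 and PB.538, named here after their values were seen. PB.6916 read 572, 879 and 1296 CPM for the duct, 757, 531 and 1664 CPM for the reservoir and 222, 375 and 191 CPM for the carcass. MSTRG.10299 read 644, 843 and 1232 CPM for the duct, 527, 436 and 1362 CPM for the reservoir and 238, 330.1 and 193 CPM for the carcass. MSTRG.8816 read 761, 889 and 937 CPM for the duct, 453, 335 and 1059 CPM for the reservoir and 232, 185 and 116 CPM for the carcass. In these 3 stems the third library was the highest in both gland parts and the lowest in the carcass, and the second library was the lowest in the reservoir. PB.8445 had the same order, from 513 CPM in the second to 1179.9 CPM in the third reservoir library. PB.538 did not: its reservoir libraries read 758, 553 and 742 CPM.

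The ratios that chose the members are given as a description, with no test. The mean duct level was 3.01 to 7.97 times the carcass mean, with a median of 4.80, and the mean reservoir level was 3.00 to 7.84 times the carcass mean, with a median of 4.60. On the log2 scale the members' medians were 2.26 for duct over carcass and 2.20 for reservoir over carcass, beside -0.05 and -0.21 over the 12143 stems tested. By the lower of the 2 ratios of each member, 53 members were under 4 times the carcass. In both gland parts, 35 reached 4 times and 16 reached 5 times. All 88 passed the filter on low counts and had their 6 gland libraries above the 3 carcass libraries, which held for 19% of the stems tested. A call took an adjusted p under 0.05 in edgeR's quasi-likelihood test together with a log2 difference of 1 or more. Of the members 87 were called higher in duct than in carcass, beside 16.3% of all stems tested. In the reservoir 87 were called higher than in the carcass, beside 15% of all stems tested. The rule used these contrasts, so the counts say nothing further of the members. PB.7288x was the member without a call in the duct and PB.575x the member without one in the reservoir.

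**Figure D2:**
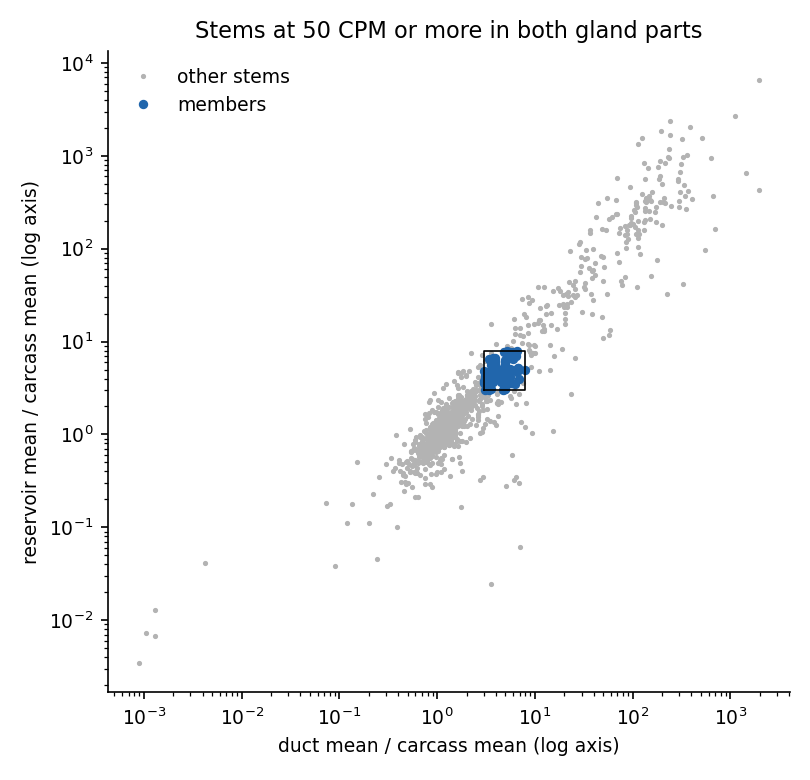
Mean duct CPM over mean carcass CPM (x axis) against mean reservoir CPM over mean carcass CPM (y axis), both on log axes, for stems at 50 CPM or more in both gland parts. Blue points are the 88 members, grey points the other stems, and the square marks the limits of 3 and 8 times the carcass. The stem with a carcass level of 0 is not drawn.

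The limits fell within a continuous spread of stems. Apart from the upper limit of 8 times, 127 further stems met every other condition, and apart from the lower limit of 3 times, 768 did. The minimum of 50 CPM alone kept out 229 stems and the 2-fold limit between gland parts kept out 3. Just inside the lower limit, PB.3093 read 115, 114 and 141 CPM for the duct, 118, 110.0 and 131 CPM for the reservoir and 41.4, 45.4 and 32.9 CPM for the carcass. Just outside it, PB.2416 read 71.5, 71.0 and 72.0 CPM in the duct against 31.1, 19.7 and 20.8 CPM in the carcass. For both stems every gland library lay above every carcass library. Just inside the upper limit, PB.7432 had a duct mean 7.97 times that of the carcass, and just outside it MSTRG.11208 had a reservoir mean 8.18 times that of the carcass. PB.4459x, with means of 51.0 CPM in the duct and 51.6 CPM in the reservoir, stood just inside the minimum level, and PB.3165, with 49.3 CPM in the reservoir, stood just outside it. PB.2220x stood just outside the 2-fold limit, with a reservoir mean 2.02 times that of the duct, and its carcass mean rests on 1 library: 156 CPM in the first and 0.606 and 0.419 CPM in the others.

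Between the 2 gland parts the members spread to both sides. The reservoir mean was 0.555 to 1.91 times the duct mean, with a median of 1.09, and 54 members were higher in the reservoir and 34 in the duct. The balance depended on the scaling. With library size alone 27 were higher in the reservoir and 61 in the duct (median ratio 0.870), and with TPM 30 and 58 (0.884). With upper-quartile scaling 59 were higher in the reservoir and 29 in the duct (1.22), and with RLE scaling 57 and 31 (1.14). These alternatives were added after the data were seen. In 26 members all reservoir libraries lay above all duct libraries, in 17 the reverse held, and in 45 the libraries overlapped. The 43 without overlap stand beside 44.5% of all stems tested. No member was called by edgeR, which the 2-fold limit all but fixes, beside 6.24% of all stems tested called higher in the reservoir, 10.9% called lower and 17.1% in either direction. At an adjusted p under 0.05 with no minimum fold 12 members (13.6%) differed in edgeR, beside 24.4% of all stems tested, and 25 (28.4%) did at an unadjusted p under 0.05, beside 36.1%. The 2-fold limit bears on these counts too. DESeq2 called 1 member, and its share over all stems is not given.

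PB.8020 was the member most shifted toward the reservoir. It read 95.4, 51.3 and 62.3 CPM for the duct, 112, 111 and 176 CPM for the reservoir and 26.4, 14.7 and 19.9 CPM for the carcass. The reservoir libraries lay above the duct libraries, and the duct libraries above those of the carcass. PB.7101 was the member most shifted toward the duct. It read 218, 174 and 269 CPM for the duct, 149.6, 133 and 84.4 CPM for the reservoir and 29.2, 55.4 and 20.8 CPM for the carcass. Here the order was duct, reservoir, carcass, again without overlap.

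**Figure D3:**
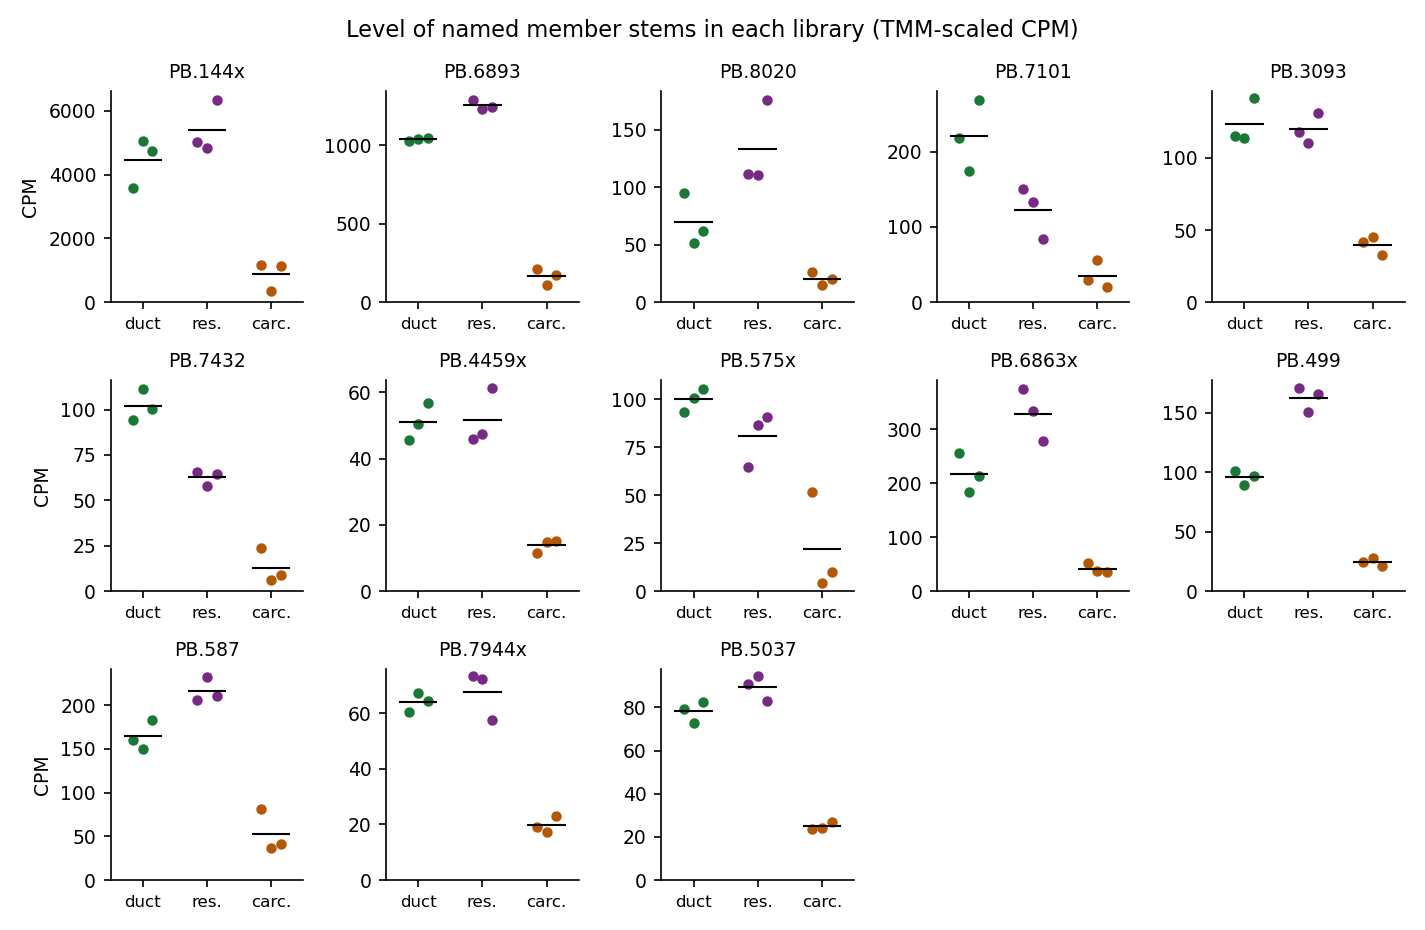
Level of 13 named members in each library (TMM-scaled CPM, linear axes that start at 0); points are libraries and horizontal lines are tissue means. The first carcass library of PB.575x, at 51.7 CPM, stands well above the other carcass libraries of that stem, while the duct libraries of PB.6893 nearly coincide.

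The members varied more among carcass libraries than among gland libraries. The median coefficient of variation over 3 libraries was 12.8% for the duct, 12.2% for the reservoir and 26.8% for the carcass, beside 10.5, 9.19 and 17.9% in the other stems at 50 CPM in both gland parts. Those stems were chosen by gland level alone, and carcass level, which the rule holds down in members, was not matched. Carcass libraries also correlated less with each other in log CPM (0.916 to 0.939) than duct (0.948 to 0.957) or reservoir libraries (0.94 to 0.954). The first carcass library was the highest of the carcass libraries in 50 members, the second in 26 and the third in 12. A member's level over its carcass mean had a median of 1.15 in the first carcass library, 0.905 in the second and 0.901 in the third. In the other stems at that level the medians were 1.01, 0.929 and 1.01. The part of this library in the ratios to the carcass can be read from its omission: without it 68 stems met the rule, 59 of them among the 88.

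PB.575x had the widest spread, a coefficient of variation of 118% in the carcass. It read 93.6, 101 and 105 CPM for the duct, 64.9, 86.4 and 90.9 CPM for the reservoir and 51.7, 4.33 and 9.92 CPM for the carcass. The gland libraries lay above all carcass libraries, but the first carcass library came close to the lowest of the reservoir. Its log2 ratios to the carcass of 2.18 in the duct and 1.88 in the reservoir became 3.81 and 3.5 without that library. PB.7432 read 94.5, 111 and 100.1 CPM for the duct, 65.5, 57.8 and 64.6 CPM for the reservoir and 23.7, 6.0 and 8.67 CPM for the carcass. The tissues did not overlap, and its log2 ratios of 2.99 and 2.29 became 3.80 and 3.09 without the first carcass library. PB.7288x, the member without a duct call, read 252, 21.3 and 159 CPM in the carcass, so that its second carcass library was the low one. Its duct libraries read 311, 596 and 583 CPM and its reservoir libraries 929.8, 1021 and 775 CPM, all above the carcass.

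By ID, 57 members carried PB without an x, 27 carried PB with an x and 4 carried MSTRG. Those shares, 64.8, 30.7 and 4.55%, stand beside 69.4, 22.1 and 4.14% of the 1183 stems at 50 CPM in both gland parts. None of the 45 stems at that level with a Ppup ID was a member. The members joined 403 transcript models, with a median of 2.5 per stem, beside 2 in the other stems at that level. A single model made up 29 members, and 59 joined several. Relative effective length, the counts obtained per TPM with the median tested stem set to 1, ran from 0.0772 to 3.91 with a median of 0.942, beside 0.820 in the other stems at that level. None of these differences was tested.

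An ID number can occur both with and without the x, and 49 members had such a partner stem, among them 24 of the 27 members with an x. Neither labels nor files say how 2 such stems relate in the genome, and reads could be divided between them, so both levels are uncertain to that extent. Joined to their partners, several members would leave the rule. Among them, PB.1179x, PB.1241x and PB.369x would fall under 3 times the carcass in both gland parts. PB.6893 would pass 8 times the carcass in the reservoir. How many members would leave in this way is not given. No partner was itself a member. The partners were not chosen by the rule, and 37 of them had enough counts to be tested. In the duct 7 of the 37 (18.9%) were called higher, beside 16.3% of all stems, and 4 (10.8%) were called lower, beside 22%. In the reservoir 7 (18.9%) were called higher, beside 15%, and 5 (13.5%) lower, beside 27.5%. Higher in both gland parts were 3 (8.11%, beside 10.7% of all stems), and lower in both were 3 (8.11%, beside 19%). With library size alone the calls in the reservoir became 3 higher and 13 lower. That scaling moved the median log2 ratio of all tested stems between reservoir and carcass by -0.787. The share of all stems called with it is not given, so these counts are not read as a result about the partners. Among the 24 partners that reached 10 CPM in a tissue, 15 had both gland means above the carcass mean, 5 had both below it and 4 had 1 on either side.

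Single partners covered the whole range, and those named here were chosen after their values were seen. PB.6893x, partner of the abundant PB.6893, stood at 36.6 ± 7.03 CPM for the duct, 146 ± 44.7 CPM for the reservoir and 0.418 ± 0.290 CPM for the carcass (SD, n = 3). Both gland parts exceeded the carcass, with edgeR adjusted p-values of 2.05e-05 and 6.69e-06, and the reservoir exceeded the duct by 2.00 on the log2 scale with an edgeR adjusted p of 0.00611. PB.2825 stood at 152 ± 26.3, 122 ± 14.9 and 45.9 ± 14 CPM (SD, n = 3) in duct, reservoir and carcass, higher in both gland parts with edgeR adjusted p-values of 0.000595 and 0.00141, the latter 0.117 with library size alone. PB.5667 went the other way, at 0.511 ± 0.353 CPM for the duct, 0.914 ± 0.917 CPM for the reservoir and 108 ± 8.84 CPM for the carcass (SD, n = 3). It fell by 7.68 and 6.91 on the log2 scale in edgeR's fit, with adjusted p-values of 0.000215 and 0.000258. Its partner PB.5667x, a member, stood at 128 ± 13.5, 133 ± 9.66 and 32.4 ± 3.95 CPM (SD, n = 3) in duct, reservoir and carcass. Taken as 1, the 2 stems would have gland means slightly below their carcass mean, so neither gland part would be raised. Whether reads of 1 locus were divided between them was not tested.

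The next 3 partners were not called against the carcass in both gland parts. PB.144, partner of the leading PB.144x, stood at 228 ± 3.66, 297 ± 98.5 and 148 ± 96.1 CPM (SD, n = 3) in duct, reservoir and carcass and was not called, with edgeR adjusted p-values of 0.301 and 0.103. Without the first carcass library it was called higher in both gland parts, at 0.0446 and 0.0153 in edgeR. PB.369 stood at 259.7 ± 29.4, 285 ± 35.3 and 239 ± 47.0 CPM (SD, n = 3) and was not called either, with edgeR adjusted p-values of 0.580 and 0.240. Its log2 differences of 0.13 and 0.27 turned to -0.35 and -0.56 with library size alone. Its partner PB.369x, a member, read 152, 182 and 149 CPM for the duct, 194, 154 and 142 CPM for the reservoir and 50.9, 10.7 and 37.8 CPM for the carcass. PB.1663x was called higher for the duct alone, at 31.4 ± 2.49 CPM, against 0.767 ± 1.16 CPM for the reservoir and 4.97 ± 4.75 CPM for the carcass (SD, n = 3). Its edgeR adjusted p was 0.0398 for the duct and 0.0563 for the reservoir against the carcass, and 0.00969 for reservoir against duct. The duct call was lost without any 1 of the duct libraries or without the second or the third carcass library, at 0.0759 to 0.109 in edgeR. The reservoir was called lower without its first library, at 0.00815, without the second carcass library, at 0.0493, and by DESeq2, at 0.0427.

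**Figure D4:**
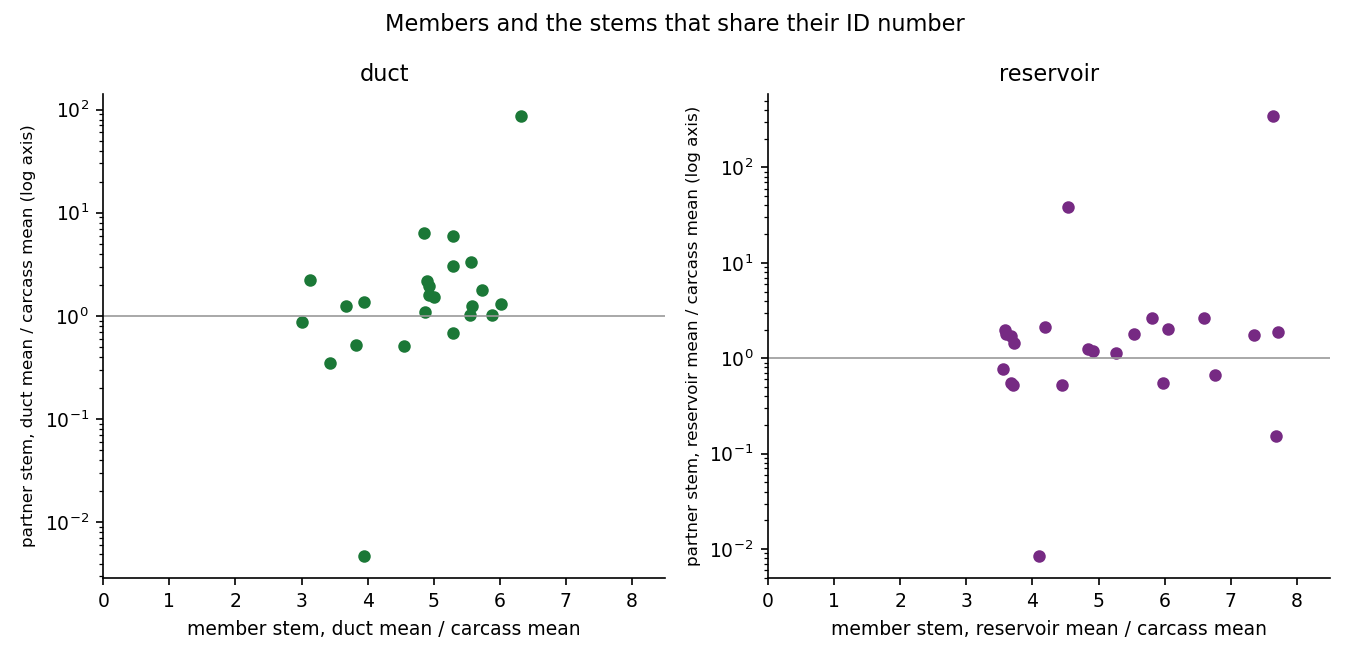
Ratio of mean CPM to the carcass for a member (x axis, linear) and for its partner stem (y axis, log), in the duct and in the reservoir, for the 24 partners that reached 10 CPM in a tissue; the line marks a ratio of 1. Most partners lie within a few-fold of 1, PB.6893x is the highest point in both panels, and PB.5667, 211 and 118 times below the carcass, is the lowest.

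Isoform usage, the share that each model holds of its stem's counts, was not used to choose the members and was tested. In 57 members at least 2 models had enough counts. By limma's diffSplice F test 19 of the 57 (33.3%) differed in usage between duct and carcass, beside 16.4% of the 4152 stems so tested and 24.3% of those at 50 CPM in both gland parts. Between reservoir and carcass 18 (31.6%) differed, beside 17.4 and 29.9%, and between reservoir and duct 6 (10.5%) differed, beside 5.08 and 8.58%. Between reservoir and duct edgeR's diffSpliceDGE called 5 members, 2 of them among these 6, beside 5.23% of all stems so tested. Without the second duct library limma's test called 3 members, beside 2.33%. In all 24 members (42.1%) differed in at least 1 comparison, beside 23.8% of the stems so tested and 36.3% of those at 50 CPM in both gland parts. In both comparisons against the carcass 13 (22.8%) differed, beside 10.5 and 19%, and in all 3 comparisons 5 (8.77%) did, beside 1.81 and 4.15%. No difference between these shares was tested. The comparisons share libraries. A change of at least 20 percentage points in 1 model was found in 13 of the 19, 14 of the 18 and 2 of the 6. In 38 of the 59 members with several models the same model led in all 9 libraries. No share over all stems is given for the wide changes or the leading models, so neither is read as a trait of the members.

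PB.6863x showed the widest shift. Its model PB.6863.3x held 80.1, 75.4 and 73.0% of the stem's counts for the duct libraries, 78.0, 72.7 and 72.8% for the reservoir libraries and 5.96, 9.37 and 4.07% for the carcass libraries. The gland libraries lay together, far above the carcass libraries. The means were 76.2% ± 3.63, 74.5% ± 3.01 and 6.47% ± 2.69 (SD, n = 3), with diffSplice adjusted p-values in limma of 3.87e-09 for the duct and 2.52e-09 for the reservoir against the carcass. The other models of this stem differed less in level. PB.6863.1x stood at 29.0 ± 5.95, 58.6 ± 6.03 and 21.8 ± 5.61 CPM (SD, n = 3) in duct, reservoir and carcass. PB.6863.2x stood at 22.1 ± 0.424, 24.3 ± 1.56 and 17.4 ± 4.51 CPM (SD, n = 3), and edgeR called it in neither gland part, with adjusted p-values of 0.375 and 0.119. PB.6863.3x stood at 166 ± 34.1, 246 ± 44.8 and 2.71 ± 1.14 CPM (SD, n = 3), so most of the distance between gland and carcass in this stem lay in 1 model.

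In PB.499 the leading model differed between gland and carcass. PB.499.14 held 56.7, 60.03 and 65.5% for the duct, 55.9, 52.9 and 56.6% for the reservoir and 15.5, 0 and 10.1% for the carcass, where a count of 0 in the second library allows a share of up to 0.331%. The gland libraries again lay above all carcass libraries. The means were 60.7% ± 4.45, 55.1% ± 1.97 and 8.54% ± 7.88 (SD, n = 3), with diffSplice adjusted p-values in limma of 0.000144 and 4.55e-05, and PB.499.5 led in all 3 carcass libraries. A leading model that was constant within each tissue also differed from the carcass in the duct for PB.144x and PB.6013, and in the reservoir for PB.1212, PB.144x, PB.2340 and PB.4459x. The usage of PB.4459x was not called between reservoir and carcass, with a diffSplice adjusted p in limma of 0.0878. That of PB.2340 was near the threshold, at 0.0469 in the same test.

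PB.587 passed the same test with carcass libraries that disagreed. PB.587.28 held 89.8, 90.9 and 92.3% for the duct, 89.5, 92.8 and 93.0% for the reservoir and 81.2, 21.7 and 15.7% for the carcass. All gland libraries lay above all carcass libraries, but the first carcass library lay near the gland. The diffSplice adjusted p in limma was 6.36e-06 for the duct and 3.46e-06 for the reservoir against the carcass, where the mean was 39.6% ± 36.2 (SD, n = 3). Without that library the difference between reservoir and carcass grew from 52.2 to 73.0 percentage points. This is the library in which 50 members were highest among the carcass libraries, and its part in the result was not otherwise tested.

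**Figure D5:**
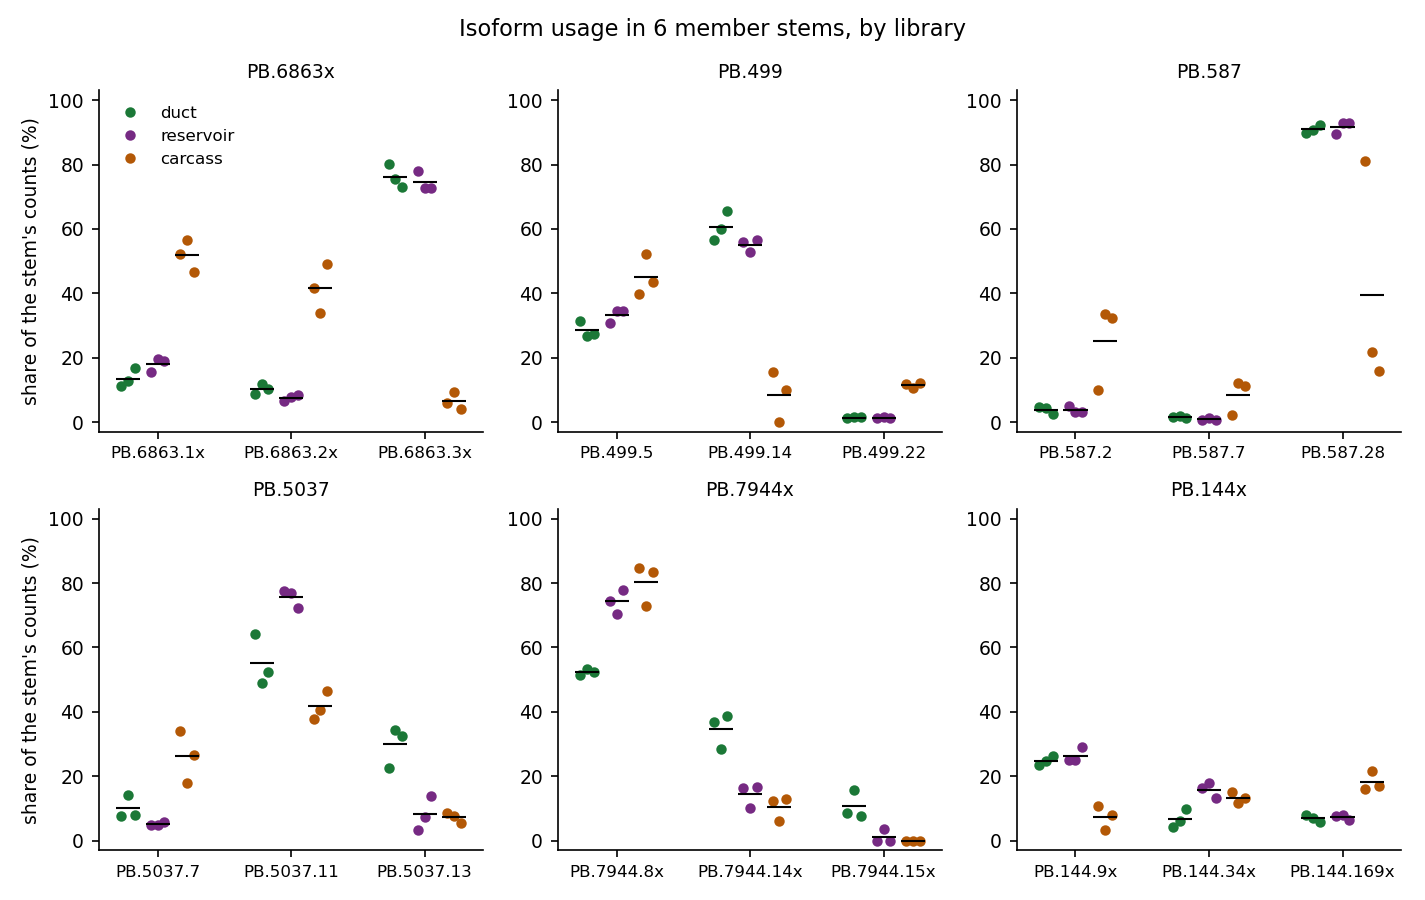
Share of the stem's counts (percent) that 3 models of each of 6 members held in each library; points are libraries and horizontal lines are tissue means. PB.6863.3x, PB.499.14 and PB.587.28 hold the larger share in both gland parts, while PB.7944.8x and PB.5037.13 separate duct from reservoir.

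Among the 6 members called between the gland parts, the widest shifts were in PB.7944x and PB.5037. Uncalled members had wider ones: PB.1241x differed by -32.1 percentage points and PB.5684x by 29.1, with diffSplice adjusted p-values in limma of 0.0577 and 0.0530. In PB.5037 the model PB.5037.13 held 22.6, 34.4 and 32.5% for the duct, 3.23, 7.41 and 13.8% for the reservoir and 8.60, 7.56 and 5.42% for the carcass. The duct libraries lay above all others, and reservoir and carcass overlapped. The diffSplice adjusted p in limma was 7.16e-05 for reservoir against duct. PB.5037.11 took the larger share in the reservoir, 75.5% ± 2.85, against 55.1% ± 7.92 in the duct and 41.7% ± 4.52 in the carcass (SD, n = 3). In PB.7944x the model PB.7944.8x held 51.4, 53.4 and 52.5% for the duct, 74.5, 70.5 and 77.9% for the reservoir and 84.7, 73.0 and 83.4% for the carcass. Here too the duct stood apart, and reservoir and carcass overlapped. The diffSplice adjusted p in limma was 0.000255 between the gland parts, 0.000109 between duct and carcass and 0.265 between reservoir and carcass. edgeR's diffSpliceDGE did not call the difference between the gland parts of PB.7944x, with an adjusted p of 0.122.

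Single models mostly lay on the same side as their stem, which the rule on the stem totals favours. Of the 290 tested models in members with several models, 243 had both gland means above the carcass mean, 19 had both below it and 28 had 1 on either side. Of all 319 tested models of members, edgeR called 168 (52.7%) higher in duct than in carcass, beside 11.5% of all models tested, and 181 (56.7%) higher in the reservoir, beside 12.2%. The sides of the means and these calls follow in part from the rule, and no share over all models is given for the sides. Called lower were 4 in the duct, beside 15%, and 1 in the reservoir, beside 19%. For reservoir against duct 5 models were called higher, beside 3.33%, and 2 lower, beside 5.74%.

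The 4 models called lower belonged to PB.144x, PB.499 and PB.7288x. PB.144.103x had no counts in any duct library, where 3 counts would be 0.142 to 0.155 CPM, against 313 ± 165 CPM for the reservoir and 16.8 ± 19.1 CPM for the carcass (SD, n = 3), and its edgeR adjusted p for the duct was 0.0473. PB.144.151x stood at 3.89 ± 1.10, 8.0 ± 2.81 and 16.1 ± 11.1 CPM (SD, n = 3) in duct, reservoir and carcass and fell by 2.14 on the log2 scale in the duct, with an edgeR adjusted p of 0.0206. PB.499.22 stood at 1.30 ± 0.124, 2.11 ± 0.196 and 2.79 ± 0.202 CPM (SD, n = 3) and fell by 1.19 on the log2 scale in the duct, with an edgeR adjusted p of 0.0216. All 4 models belonged to members, so the totals of their stems lay above the carcass. PB.7288.13x stood at 0.113 ± 0.107, 0.0592 ± 0.0547 and 1.84 ± 0.415 CPM (SD, n = 3) and was called lower in both gland parts, with edgeR adjusted p-values of 0.0179 and 0.00919. The 4 duct calls were not stable to single libraries. PB.144.103x kept its call without the first carcass library and lost it without each of the other 8 libraries, at edgeR adjusted p-values of 0.0753 to 0.105, and PB.499.22 lost its call without any 1 duct or carcass library, at 0.0579 to 0.0777. PB.144.151x lost its call without the first or second duct or the first carcass library, at 0.0571 to 0.0745 in edgeR. PB.7288.13x lost its duct call without the first or the third duct or the second or the third carcass library, at 0.0510 to 0.0741 in edgeR, and kept its reservoir call without each of the 9 libraries.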

How the data were processed

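Strand-specific, paired-end Illumina libraries were made from total RNA of 3 tissues with 3 libraries each, per the labels' protocols. The authors deposited estimated counts and TPM per transcript model. The submitters' processing notes name Salmon 1.9. No label or file header names the transcript reference or the genome build. Salmon divides reads among similar models, so levels of single models and of stems with the same ID number are uncertain. The deposited estimated counts were whole numbers already and rounding changed none. The deposited TPM columns sum to 1e+06 in 8 of 9 libraries. The exception, reservoir replicate 2, equals duct replicate 3 plus reservoir replicate 1 within 2e-06 TPM for 99.96% of models, so it was left out of every TPM value.

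Counts were summed per stem and scaled with TMM over all stems. Stems and models kept by filterByExpr were tested with edgeR 4.0.16 (quasi-likelihood, 1 coefficient per tissue), and isoform usage with limma 3.58.1 (voom and diffSplice) in R 4.3.3. All p-values were adjusted by the Benjamini-Hochberg method over all stems or models tested, with a threshold of 0.05, and calls of levels also needed an absolute log2 fold change of 1. DESeq2 1.42.0, other scalings, no filter, other usage tests and the omission of each library were alternatives. The code was checked on simulated data. Depth was 18690598 to 22640711 counts per library. A count of 0 was given a floor of 3 counts, which covers counting error only.

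The members and lists were chosen with earlier results of these data known. Named members were the 2 of highest TPM, the extremes of the reservoir to duct ratio and of the coefficient of variation, those nearest each limit, the 2 with the widest usage change per comparison among called members with at least 100 counts in every library compared, and the 2 with the most abundant model that was called lower. Partner stems, the stems over 500 CPM and the other members named in the text were added after the values were seen. Lists by gene function and tissue markers were not run, since no annotation was used here.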

Additional observations from a re-analysis of the deposited data

Results flagged for a closer look

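In 6 members isoform usage differed between the 2 gland parts by a direct test, limma's diffSplice F test. PB.6013 had an adjusted p of 1.16e-05, with PB.6013.4 at 9.77% ± 1.21 in the duct, 19.3% ± 3.29 in the reservoir (SD, n = 3) and no count in the carcass, which allows a share of up to 0.0587% over its 3 libraries. PB.5037 had an adjusted p of 7.16e-05 in limma's test, with PB.5037.13 at 29.9% ± 6.35 for duct and 8.14% ± 5.31 for reservoir (SD, n = 3). PB.144x had an adjusted p of 0.000131 in limma's test, with PB.144.34x at 6.63% ± 2.85 for duct and 15.8% ± 2.32 for reservoir (SD, n = 3). PB.7944x had an adjusted p of 0.000255 in limma's test, with PB.7944.8x at 52.4% ± 1.01 for duct and 74.3% ± 3.71 for reservoir (SD, n = 3). PB.2089 had an adjusted p of 0.00663 in limma's test, with PB.2089.42 at 33.0% ± 2.18 for duct and 41.8% ± 4.33 for reservoir (SD, n = 3). PB.1608 had an adjusted p of 0.0460 in limma's test, with PB.1608.1 at 92.8% ± 0.770 for duct and 88.5% ± 0.967 for reservoir (SD, n = 3). By edgeR's diffSpliceDGE, PB.5037 and PB.144x were also called, with adjusted p-values of 0.0244 and 0.00533, and the other 4 were not, with adjusted p-values of 0.122 for PB.7944x, 0.126 for PB.1608, 0.412 for PB.6013 and 0.960 for PB.2089. The call of PB.144x was lost with models of at least 5% of their stem, at an adjusted p of 0.702 in limma's test, and without the first or the second duct library, at 0.115 and 0.149. The call of PB.2089 was lost without the second or the third duct library or the second or the third reservoir library, at 0.0504 to 0.0846 in limma's test, and that of PB.1608 without any 1 library but the second of the carcass, at 0.0526 to 0.187.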

How the results depend on the processing

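Membership depended on the scaling. The rule gave 33 stems with library size alone, of which 15 were among the 88, and 20 with TPM, of which 4 were. A minimum of 25 CPM gave 137 stems and one of 100 CPM gave 45. Leaving out single libraries gave 68 to 92 stems, and 39 of the 88 met the rule in every such fit. For reservoir against duct, where 0 members were called, library size alone called 3, DESeq2 called 1 and fits without single libraries called 0 to 1. No share of all stems is given for these alternatives. Usage calls for reservoir against duct were 10 by the Simes test, beside 5.27% of all stems so tested. Without single libraries they were 3 to 8, beside 2.09 to 6.4%, and the lowest count came without the second duct library. By TPM the members' share was 1.5% in the duct and 1.31% in the reservoir. For partners, library size alone gave 4 higher and 7 lower in the duct, and 3 higher and 13 lower in the reservoir. That scaling moved the median log2 ratio of all tested stems against the carcass by -0.446 in the duct and -0.787 in the reservoir. With library size alone the partner PB.369 turned to -0.35 and -0.56 on the log2 scale against the carcass. The median log2 ratio of tested stems for reservoir against duct turned from -0.03 to 0.13 by upper quartile and to 0.04 by RLE. For replicate numbers, the correlation of same-numbered libraries was -0.103 to 0.128, with 1 of 9 pairs over 0.1 and 3 of 9 libraries closest to their own number, so the numbers were not taken as pairs. With the replicate block 86 and 87 members were called against the carcass in duct and reservoir, contrasts that the rule used. Usage calls with the block were 15, 17 and 5, beside 16.7, 17.3 and 5.32% of all stems so tested. Under the block PB.144x, PB.2089 and PB.1608 lost their usage calls between the gland parts. Precision is limited by 3 libraries a tissue and, for single models, by how reads were divided.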
